A study of Mus musculus with 4 samples.

Results

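Translation initiation factors (eIFs) are the proteins that bring a messenger RNA, the initiator tRNA and the ribosomal subunits together at a start codon. Their genes were taken as every row of the deposited expression table whose symbol begins with Eif followed by 1 to 6, leaving out the Eif2ak kinases and pseudogenes. This gave 51 of the 17039 genes in the table, and all 51 passed the filter on low counts, which left 12887 genes for testing. The members and the lists beside them were chosen with earlier results of these data known.

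The libraries came from splenic T cells of 4 C57BL/6 mice, named CD8 in the sample titles, with 2 mice in each group. The AAV-IL-27 mice had received a recombinant adeno-associated virus that expresses interleukin-27 (IL-27), and the AAV-ctrl mice a control recombinant virus. Both were injected into muscle about a month before the cells were separated from the spleen with magnetic beads. What the control virus carries, the promoter that drives IL-27, the age and sex of the mice, and whether the beads kept or removed the labelled cells are not given in the sources used here. The titles number the libraries 1 and 3 in each group, and they are called IL-27-1, IL-27-3, ctrl-1 and ctrl-3 here. Values per library are given with number 1 before number 3.

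In the usual scheme, eIF2 carries the initiator tRNA to the small ribosomal subunit, eIF2B recharges eIF2 with GTP, and eIF1, eIF1A, eIF3 and eIF5 help the subunit to scan for a start codon. The eIF4 group brings in the capped end of the mRNA: eIF4E binds the cap, eIF4G is the scaffold, eIF4A is an RNA helicase, and the 4E-binding proteins keep eIF4E from the scaffold. Resting T cells are known for low rates of protein synthesis that climb steeply on activation.

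Total counts were 15742476 to 16182426 per library, and initiation factors took 1.05% to 1.09% of the counts in every library. Of the list of 16 T cell markers 14 were in the table, with Cd8a at 408 and 349 FPKM (fragments scaled to transcript length and library size) in AAV-IL-27 and 321 and 335 in AAV-ctrl. The 14 summed to 6525 and 5767 CPM (counts scaled to library size) against 5560.3 and 5675, and 8 of them were called higher and 2 lower. Markers of other cells moved as well. The 13 neutrophil genes summed to 803 and 1312 CPM in AAV-IL-27 and to 23.3 and 15.4 in AAV-ctrl, and 12 of the 13 were called higher; none was at 0 in both control libraries. The 10 cell cycle genes summed to 1650 and 1693 against 563 and 552, and all 10 were called higher. The 8 B cell genes summed to 1822 and 2512 against 3773 and 3359.8, with 3 called lower. Of 10 NK cell genes 3 were called higher and 6 lower, and of 9 macrophage and monocyte genes 1 higher and 4 lower. The part of these cells in the changes below was not tested. In bulk RNA, fewer cells of a type and less RNA per cell cannot be told apart.

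More initiation factor genes were higher than lower in AAV-IL-27, and the changes were small. By edgeR's quasi-likelihood test with Benjamini-Hochberg adjustment over all genes at an adjusted p under 0.05, 20 of the 51 were called higher (39.2%), beside 21.3% of all genes tested, and 3 were called lower (5.88%), beside 17.7%. The share called in either direction was 45.1%, beside 39.0%. Among the 4869 genes counted at least as deeply as the lower quartile of the initiation factors, 26.7% were called higher, 22.2% lower and 48.8% either way. The median log2 fold change (AAV-IL-27 minus AAV-ctrl) was 0.13 over the 51 and -0.01 over all genes tested. No initiation factor changed as much as 2-fold, against 7.50% of all genes called at that size. The widest change was that of Eif1a, at 1.62-fold. In scaled CPM the groups did not overlap for 40 of the 51, 34 of them higher in AAV-IL-27, and 71.5% of all genes tested did not overlap.

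These numbers moved with the scaling and with the control libraries. With upper-quartile factors or library size alone, 16 were called higher and 5 lower, beside 18.3% and 23.1% of all genes tested. Scaled so that the T cell markers summed to the same in every library, 4 were called higher and 4 lower, and the median of all genes fell from -0.01 to -0.13. Of all genes tested, 11.8% were called higher and 21% lower under this scaling. The share called higher was then no larger among the initiation factors than among all genes. Without ctrl-1 or ctrl-3 fewer were called in each direction, among the initiation factors and among all genes. The share of initiation factors called higher then lay closer to the share of all genes called higher. The median log2 fold change of the initiation factors was 0.139 without ctrl-1 and 0.135 without ctrl-3. That of all genes was -0.003 and -0.002. DESeq2 called 15 higher and 2 lower, beside 15.6% and 9.61% of all genes tested. In every setting the median of the initiation factors lay above that of all genes, by 0.11 (without IL-27-3) to 0.17 (without IL-27-1). The plot of calls by setting shows each count. The calls of 5 genes held under all 11 alternatives run: Eif1a, Eif2s1, Eif4e3 and Eif4enif1, which were higher, and Eif4a2, which was lower. The fit placed the initiation factors a median of 0.05 (log2) above the ratio of their FPKM. For 7 members the sign of the FPKM ratio was the other one.

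**Figure D1:**
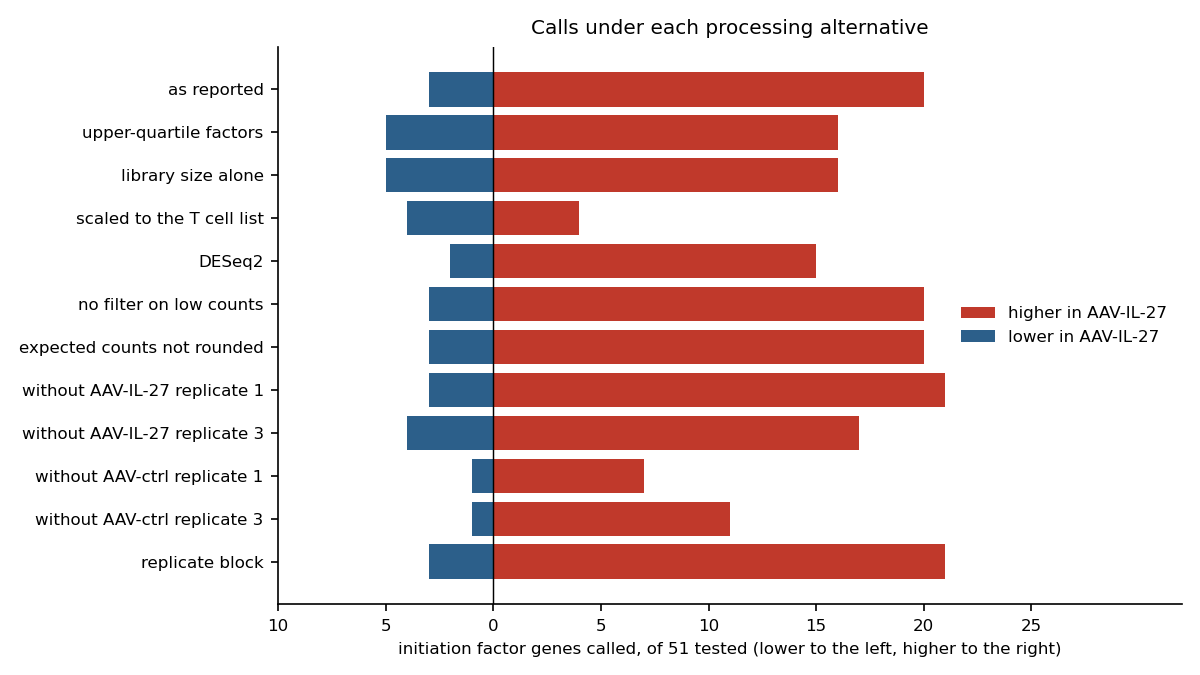
Number of the 51 initiation factor genes called higher (right) and lower (left) in AAV-IL-27 under each processing setting, 1 bar per setting. The bars for higher genes run from 4 (T cell marker scaling) to 21 (without IL-27-1, and with the replicate block), and those for lower genes from 1 to 5.

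**Figure D2:**
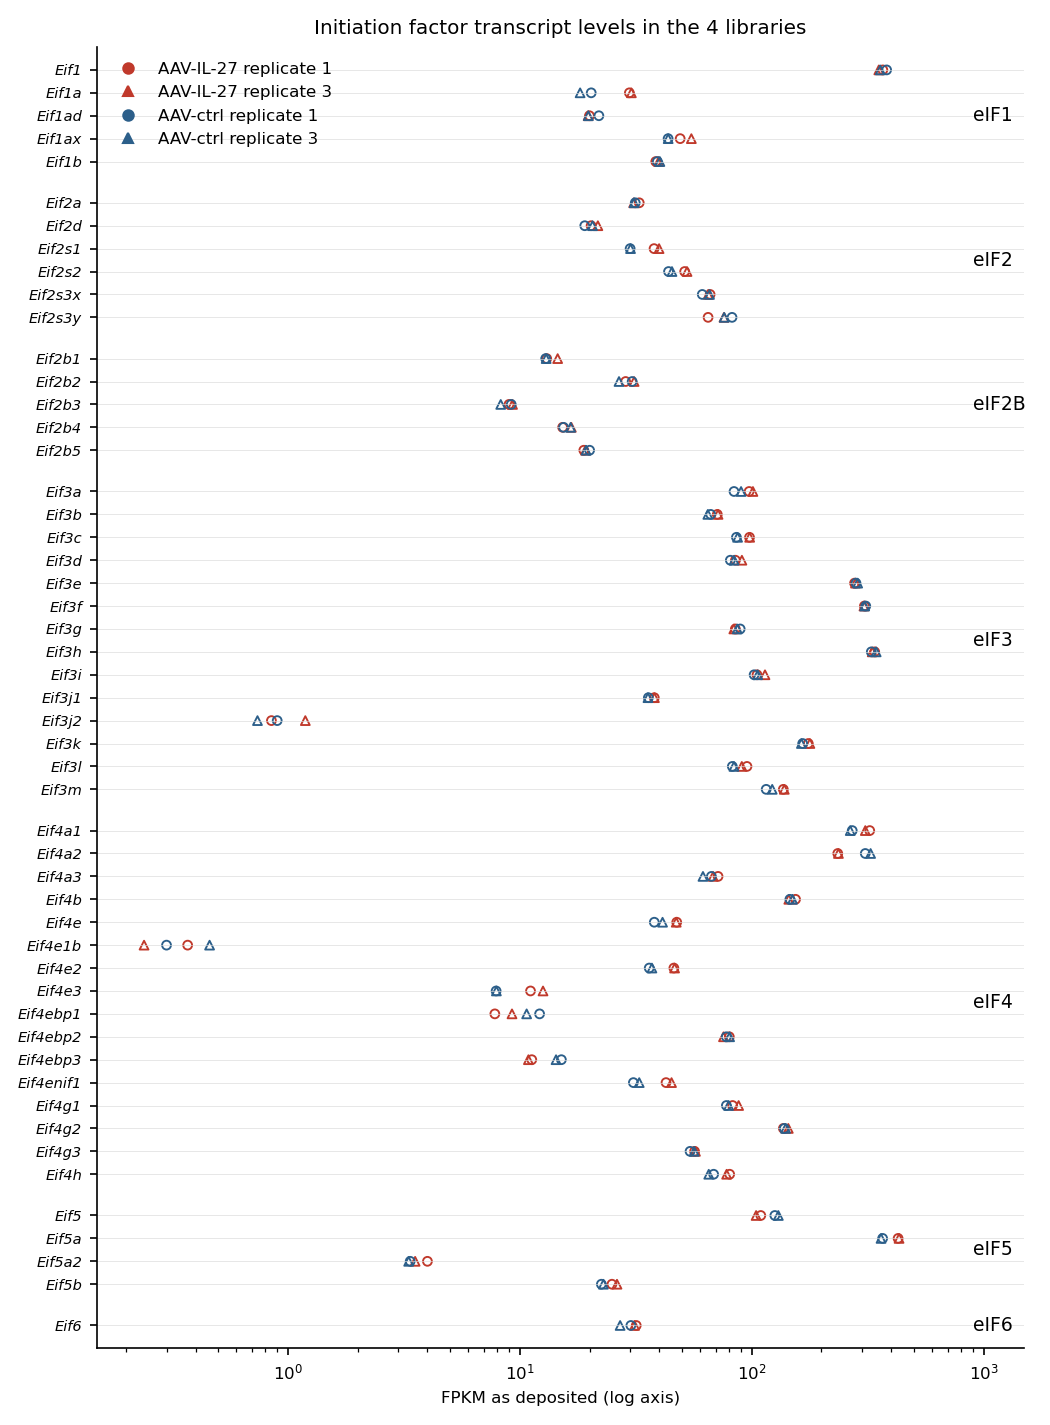
FPKM of each of the 51 initiation factor genes in the 4 libraries, on a log axis, with 1 row per gene and the genes grouped by complex (red, AAV-IL-27; blue, AAV-ctrl; circles, replicate 1; triangles, replicate 3). Eif5a, Eif1 and Eif3h stand at the right, Eif3j2 and Eif4e1b at the left, and in most rows the 4 libraries lie close together.

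**Figure D3:**
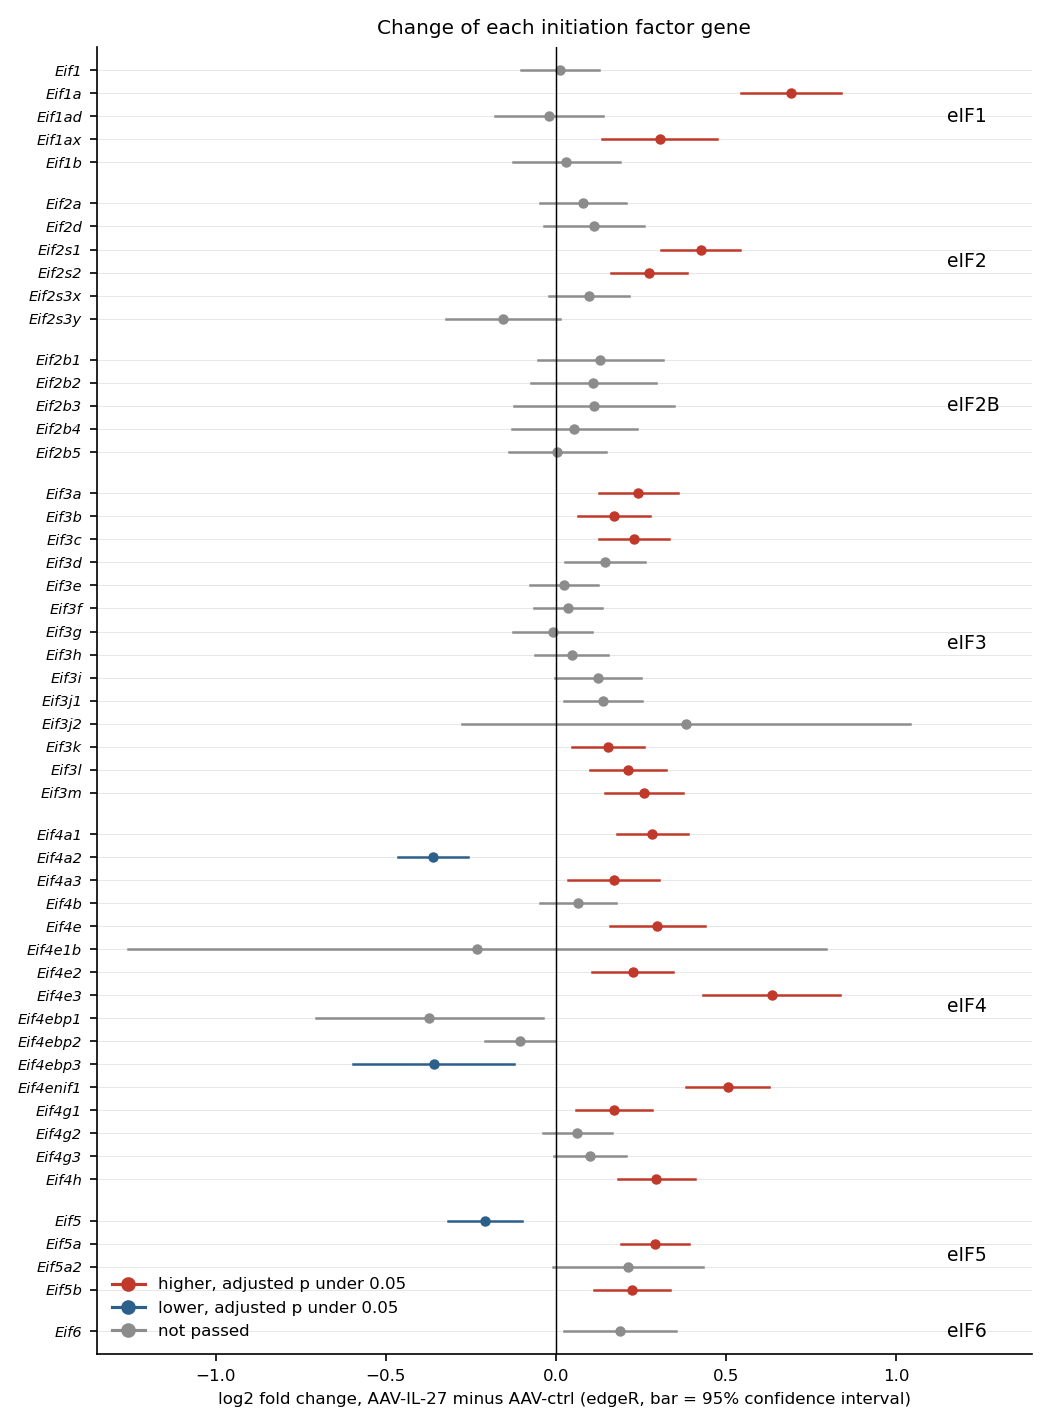
Log2 fold change of each initiation factor gene, AAV-IL-27 minus AAV-ctrl, as fitted by edgeR, with bars for the 95% confidence interval. The 20 genes called higher are red, the 3 called lower (Eif4a2, Eif4ebp3 and Eif5) are blue, and the other 28 are grey.

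Of the 5 genes of the eIF1 group, Eif1a and Eif1ax were called higher (40%, beside 21.3% of all genes tested) and none was called lower. Both encode eIF1A, which binds the decoding site of the small subunit during scanning. Eif1a (NCBI Gene 13664) stood at 29.7 and 30.3 FPKM in AAV-IL-27 and at 20.3 and 18.2 in AAV-ctrl. Both AAV-IL-27 libraries lay above both controls, and the log2 fold change was 0.69 ± 0.065 (SE, n = 2 per group, edgeR adjusted p = 4.86e-05). Eif1ax, its X-linked counterpart, stood at 49.2 and 54.95 FPKM against 43.62 and 43.65, a log2 fold change of 0.30 ± 0.075 (edgeR adjusted p = 0.0106). It did not pass without IL-27-3 (adjusted p = 0.0533), ctrl-1 (0.0838) or ctrl-3 (0.08), by DESeq2 (0.0623) or under T cell marker scaling (0.271). The ratio of Eif1a to Eif1ax in FPKM was 0.604 and 0.551 in AAV-IL-27 and 0.466 and 0.417 in AAV-ctrl.

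Eif1 itself, which guards the choice of start codon, stood at 368 and 353 FPKM against 382 and 358, with groups that overlapped. Its log2 fold change of 0.01 had a 95% confidence interval of -0.10 to 0.13. The intervals of Eif1b (-0.13 to 0.19) and Eif1ad (-0.18 to 0.14) were wider.

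The eIF2 trimer is encoded by Eif2s1 (alpha), Eif2s2 (beta) and the sex-linked pair Eif2s3x and Eif2s3y (gamma). The alpha and beta genes were called higher and neither gamma gene was called. Eif2s1 (NCBI Gene 13665, chromosome 12, 78862072 to 78887010), whose product carries the serine that stress kinases phosphorylate, stood at 37.9 and 39.9 FPKM in AAV-IL-27 and at 29.9 and 30.04 in AAV-ctrl. The groups lay well apart, and the log2 fold change was 0.43 ± 0.051 (edgeR adjusted p = 0.000224). Eif2s2 stood at 51.4 and 52.6 FPKM against 43.8 and 45.3 (log2 fold change 0.27 ± 0.05, edgeR adjusted p = 0.00237), and lost its call without ctrl-1 (adjusted p = 0.0501) or under T cell marker scaling (0.328).

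Among the gamma genes, Eif2s3x stood at 66.2 and 65.0 FPKM against 61.2 and 65.8, with a confidence interval of -0.02 to 0.21 for the log2 fold change. Eif2s3y, on the Y chromosome, stood at 64.9 and 76.0 against 82.3 and 76.1 and was the lone gene of this group below 0, at -0.15 (interval -0.32 to 0.01). Without IL-27-3 it was called lower (log2 fold change -0.27, adjusted p = 0.00767). Both copies were read in all 4 libraries at like levels, and their expected counts were not whole numbers, so reads shared by the copies may be divided between them. Eif2a and Eif2d, which deliver initiator tRNA by other routes, were not called (0.08 ± 0.056 and 0.11 ± 0.065).

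None of the 5 eIF2B subunit genes was called by edgeR in either direction. None had an unadjusted p under 0.05, and DESeq2 called none. Their log2 fold changes lay between 0.00 (Eif2b5) and 0.13 (Eif2b1). The largest upper bound of their confidence intervals was 0.35 (Eif2b3), so a rise of the size of Eif1a lies outside all 5 intervals. They stood between 8.28 and 31.1 FPKM.

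Of the 14 genes of eIF3, the large scaffold that holds small subunit and mRNA together, 6 were called higher and none lower by edgeR. The share called higher was 42.9%, beside 21.3% of all genes tested. At an unadjusted p under 0.05 there were 8 higher and none lower, and DESeq2 called 4 higher and none lower. The 6 were Eif3a, Eif3b, Eif3c, Eif3k, Eif3l and Eif3m. Eif3m stood at 136.9 and 138.2 FPKM against 115.5 and 122.6, a log2 fold change of 0.26 ± 0.051 (edgeR adjusted p = 0.00348). Eif3a, the largest subunit, stood at 97.5 and 101.2 against 83.9 and 90.01 (0.24 ± 0.052, adjusted p = 0.00525). Eif3c stood at 97.9 and 98.0 against 85.95 and 86.95 (0.23 ± 0.046, adjusted p = 0.00366). In each of these genes both AAV-IL-27 libraries lay above both controls.

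The other 8 eIF3 genes were not called. Of these, Eif3d (0.14 ± 0.052, edgeR adjusted p = 0.0558) was called higher without IL-27-1 (0.0229) and with the replicate block (0.045), and Eif3i (0.12 ± 0.056, adjusted p = 0.111) without IL-27-1 (0.0319). Eif3j2, at 0.74 to 1.19 FPKM, had an interval of -0.28 to 1.04. Eif3e was at 278 and 280.3 FPKM against 282 and 286, Eif3f at 306 and 305 against 310.4 and 307, and Eif3h at 339 and 331 against 328 and 344. Their log2 fold changes were 0.02, 0.04 and 0.05, with confidence intervals of -0.08 to 0.13, -0.06 to 0.13 and -0.06 to 0.15. Their signs turned with upper-quartile factors, library size alone and the T cell scaling. These are also the eIF3 genes with the highest levels. In a library the 12 single-letter core genes Eif3a to Eif3m (Eif3j is counted apart as Eif3j1 and Eif3j2) spanned a 4.62- to 5.32-fold range in FPKM, from Eif3b at 64.7 to 71.6 up to Eif3h. The eIF3 calls were sensitive to the libraries left out: most or all of them were lost without ctrl-1 or ctrl-3. The median log2 fold change of the 14 was 0.148 as reported, 0.149 without ctrl-1 and 0.15 without ctrl-3. Under T cell marker scaling none of the 14 was called, and the median was 0.03.

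Among the 16 genes of the eIF4 group 8 were called higher (50%) and 2 lower (12.5%), beside 21.3% and 17.7% of all genes tested. With upper-quartile factors or library size alone, 6 were called higher and 4 lower, beside 18.3% and 23.1% of all genes. Under T cell marker scaling 2 were called higher and 3 lower, beside 11.8% and 21%. The median log2 fold change of the group was 0.14 as reported and 0.01 under T cell marker scaling. The 2 helicase genes moved in opposite directions. Eif4a1 (NCBI Gene 13681, chromosome 11, 69666936 to 69672423) stood at 323 and 309 FPKM in AAV-IL-27 and at 271 and 266 in AAV-ctrl. Its log2 fold change was 0.28 ± 0.047 (edgeR adjusted p = 0.00132), and it did not pass under T cell marker scaling (0.16, adjusted p = 0.283). Eif4a2 (NCBI Gene 13682, chromosome 16, 23107468 to 23114132), its close paralog, stood at 235 and 237 FPKM in AAV-IL-27 and at 309 and 326 in AAV-ctrl. It fell by 0.36 ± 0.046 on the log2 scale (edgeR adjusted p = 0.000297). In FPKM, Eif4a1 was 1.37 and 1.31 times Eif4a2 in AAV-IL-27 and 0.879 and 0.817 times in AAV-ctrl, so the order of the pair differed between the groups in all 4 libraries. An exact two-sided permutation test of this ratio gave p = 0.333, the smallest value that 2 against 2 libraries can give. Eif4a3, a paralog of the exon junction complex, stood near the threshold (0.17 ± 0.059, adjusted p = 0.0474) and lost its call without IL-27-1 (0.145), ctrl-1 (0.0775) or ctrl-3 (0.345), with upper-quartile factors (0.14) or library size alone (0.137), under T cell marker scaling (0.812) and by DESeq2 (0.193).

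Of the helicase partners, Eif4h rose from 68.5 and 65.3 FPKM to 80.4 and 78.0 (0.30 ± 0.05, edgeR adjusted p = 0.00156; 0.17 and adjusted p = 0.257 under T cell marker scaling). Eif4b, which does the same work, was not called, at 155 and 145 FPKM against 146 and 150.04 (interval -0.05 to 0.18). Of the scaffolds, Eif4g1 stood at 82.8 and 87.8 FPKM against 77.8 and 79.5 (0.17 ± 0.049, adjusted p = 0.0218), and lost its call without IL-27-3 (0.0599), ctrl-1 (0.193) or ctrl-3 (0.125), with upper-quartile factors (0.0766) or library size alone (0.0754), and under T cell marker scaling (0.764). Eif4g3 and Eif4g2 (also called DAP5) were not called (0.10 ± 0.047 and 0.06 ± 0.045).

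Cap-binding proteins of the eIF4E family were called higher, and the genes of their inhibitors lay below 0. Eif4e (NCBI Gene 13684, chromosome 3, 138526191 to 138559696) stood at 47.5 and 47.3 FPKM against 38.0 and 41.3, a log2 fold change of 0.30 ± 0.062 (edgeR adjusted p = 0.00472). It did not pass without ctrl-1 (adjusted p = 0.0765) or under T cell marker scaling (0.258). Eif4e3, an atypical cap binder, stood at 11.1 and 12.6 FPKM against 7.91 and 7.93 (0.64 ± 0.089, adjusted p = 0.000565). Eif4e2, also named 4EHP, which represses the mRNAs it binds, stood at 46.2 and 46.5 against 36.2 and 37.1 (0.23 ± 0.053, adjusted p = 0.00833). It did not pass without ctrl-1 (0.0669) or ctrl-3 (0.0949), by DESeq2 (0.0615) or under T cell marker scaling (0.534). Eif4enif1, the 4E transporter that carries eIF4E into the nucleus and to P-bodies, stood at 42.7 and 45.1 FPKM against 30.9 and 32.8 (0.51 ± 0.054, adjusted p = 0.000106). The oocyte form Eif4e1b had 8.51 to 15.2 counts per library, too few to read a change.

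The 3 genes of the 4E-binding proteins, which block eIF4E until mTORC1 phosphorylates them, lay below 0 together, and 1 of them was called. Eif4ebp3 stood at 11.3 and 10.9 FPKM in AAV-IL-27 and at 15.1 and 14.3 in AAV-ctrl (-0.36 ± 0.10, edgeR adjusted p = 0.0231). It did not pass without IL-27-3 (adjusted p = 0.0523), ctrl-1 (0.171) or ctrl-3 (0.101), nor by DESeq2 (0.2). Eif4ebp1 stood at 7.81 and 9.26 FPKM against 12.2 and 10.7, with groups that did not overlap and a log2 fold change of -0.37 ± 0.15 (adjusted p = 0.0751). It was called lower with upper-quartile factors (0.0465), library size alone (0.0461) and the T cell scaling (0.0332), and without IL-27-3 (0.0411). Eif4ebp2 held most of the family's transcripts, at 80.1 and 75.6 FPKM against 77.7 and 80.3, and was not called (-0.11 ± 0.045, adjusted p = 0.0936), but was with upper-quartile factors (0.0207) and library size alone (0.0217). Summed in FPKM, the 3 were 2.09 and 2.02 times Eif4e in AAV-IL-27 and 2.76 and 2.55 times in AAV-ctrl (exact two-sided permutation p = 0.333, the smallest possible). The plot of 12 factors shows these genes library by library.

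**Figure D4:**
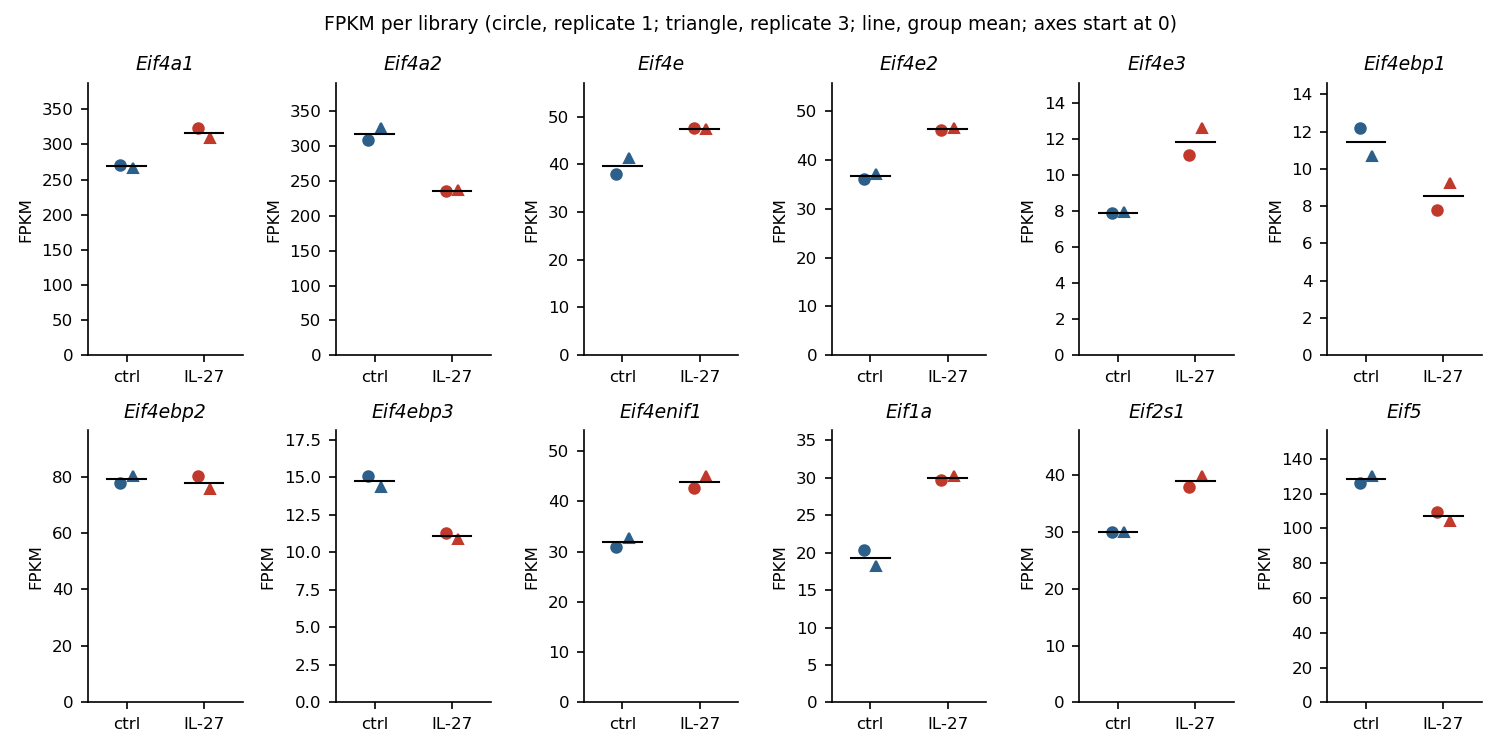
FPKM of 12 initiation factor genes in each library, AAV-ctrl at the left and AAV-IL-27 at the right of each panel, with a line at the group mean and axes that start at 0. Eif4a1 and Eif4a2 move in opposite directions, and Eif4ebp2 is the 1 panel of the 12 in which the groups overlap in FPKM.

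In the eIF5 group of 4 genes, 2 were called higher (50%) and 1 lower (25%), beside 21.3% and 17.7% of all genes tested. Eif5a (NCBI Gene 276770, chromosome 11, 69916712 to 69921958), the hypusine-bearing factor that helps ribosomes through stretches such as polyproline, stood at 428 and 432 FPKM against 367 and 361. Its mean over the 4 libraries was the highest of the 51, while in AAV-ctrl the mean of Eif1 (370.1) lay above that of Eif5a (364.1). Its log2 fold change was 0.29 ± 0.044 (edgeR adjusted p = 0.000881), and 0.17 with an adjusted p of 0.246 under T cell marker scaling. Its paralog Eif5a2 stood at 4.00 and 3.54 FPKM against 3.37 and 3.32 and was not called (0.21 ± 0.097, adjusted p = 0.116). Eif5b, the GTPase that joins the large subunit, stood at 24.98 and 26.3 FPKM against 22.5 and 22.95 (0.22 ± 0.049, adjusted p = 0.00622), and lost its call without ctrl-1 (0.0879) or ctrl-3 (0.0591), or under T cell marker scaling (0.52).

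Eif5, the GTPase-activating protein of eIF2, ran the other way. It stood at 109 and 105 FPKM in AAV-IL-27 and at 126 and 130.3 in AAV-ctrl, and fell by 0.21 ± 0.048 (edgeR adjusted p = 0.00793). It did not pass without ctrl-1 (adjusted p = 0.0564) or ctrl-3 (0.117). The ratio of Eif1 to Eif5, factors that compete on the scanning ribosome, was 3.36 and 3.38 in AAV-IL-27 and 3.03 and 2.75 in AAV-ctrl. Eif6, which keeps the large subunit from joining early, was not called, at 31.8 and 31.3 FPKM against 30.1 and 27.1 (0.19 ± 0.073, adjusted p = 0.067).

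RefSeq promoter windows of build GRCm38.p6, from 250 bases before to 50 after an annotated start, were found for 39 of the 51 genes. They were searched for a pyrimidine run at the start, the mark of mRNAs with a terminal oligopyrimidine (TOP) tract whose translation follows mTORC1 through Larp1. The run searched for was a C followed by at least 5 bases that are each C or T, on the sense strand, beginning within 5 bases of the start. It was held by 7 of the 39 genes (17.9%), by 11.9% of all 27025 genes with a window, by 13% of the 10278 tested genes with one, and by 43.1% of 65 ribosomal protein genes. The windows of Eif3f and of the eIF2 gamma pair, which were not called, and of Eif3l, which was, show it as capitals in the 30 bases from 10 before the start to 20 from it onward:
Eif3f, chr7:108934405-108934434, plus strand: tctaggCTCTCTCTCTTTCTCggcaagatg
Eif2s3x, chrX:94212632-94212661, minus strand: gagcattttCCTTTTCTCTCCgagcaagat
Eif2s3y, chrY:1010585-1010614, plus strand: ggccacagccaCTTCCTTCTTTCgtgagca
Eif3l, chr15:79075213-79075242, plus strand: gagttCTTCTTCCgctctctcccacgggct

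Of the 7 genes with the run, 2 were called higher (Eif3l and Eif4g1) and 5 were not called. Of the 32 without it, 16 were called higher and 2 lower. Over all tested genes with a window, 20.4% of those with the run and 21.4% of those without it were called higher. Eif3e, Eif3h and Eif4b are known TOP mRNAs together with Eif3f, and none of these 4 genes was called. The first 2 had no window here, and the window of Eif4b did not hold the run as searched.

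The same windows were searched for CACGTG, the palindromic E-box that Myc and related factors bind, which reads alike on both strands. It was held by 10 of the 39 initiation factor genes (25.6%), by 8.09% of all genes with a window and by 11.5% of the tested genes with one. Of the 10, 7 were called higher and none lower, and of the 29 without it 11 were called higher and 2 lower. Over all tested genes with a window, 18.2% of those with the motif were called higher, against 21.7% of those without it. The motif is in capitals in 30-base stretches of genes that were called higher:
Eif4a1, chr11:69672595-69672624, minus strand: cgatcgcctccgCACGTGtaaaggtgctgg
Eif4e, chr3:138527192-138527221, plus strand: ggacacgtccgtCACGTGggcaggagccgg
Eif4g1, chr16:20672661-20672690, plus strand: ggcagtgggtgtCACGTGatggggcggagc
Eif4h, chr5:134639488-134639517, minus strand: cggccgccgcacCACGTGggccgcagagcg
Eif3a, chr19:60790654-60790683, minus strand: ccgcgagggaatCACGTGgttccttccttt
A match describes letters in a window and is no measure of binding. Myc itself stood at 107 and 128 FPKM against 91.2 and 105.6 (log2 fold change 0.30 ± 0.11, edgeR adjusted p = 0.0962), and was called higher by DESeq2 (0.0112), without IL-27-1 (0.00499) and with the replicate block (0.00132).

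The regulators of initiation changed in part more than the factors themselves. Of the 4 kinases that phosphorylate eIF2 alpha, Eif2ak2 (PKR, sensor of double-stranded RNA and an interferon-inducible gene) rose from 15.1 and 13.6 FPKM to 20.7 and 21.3 (0.58 ± 0.063, edgeR adjusted p = 0.000116). Eif2ak3 (PERK, the sensor in the endoplasmic reticulum) stood at 10.7 and 10.2 FPKM against 15.02 and 14.1, and fell by 0.40 ± 0.066 (adjusted p = 0.00125). Eif2ak4 (GCN2, which senses uncharged tRNA) was at -0.20 ± 0.084 (adjusted p = 0.0874) and was called lower with library size alone (0.0387), upper-quartile factors (0.0392) or the T cell scaling (0.0459), and without IL-27-3 (0.0305). Eif2ak1 (HRI, regulated by haem) was at 0.08 ± 0.052.

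Of 16 tested genes of the integrated stress response, the programme that follows phosphorylation of eIF2 alpha, 7 were called higher and none lower by edgeR. The share called higher was 43.8%, beside 21.3% of all genes tested. The counts at an unadjusted p under 0.05 were the same, while DESeq2 called 5 higher and none lower. Without ctrl-1 the test called 4 higher, and without IL-27-3 it called 6 higher and 1 lower. The 4 with the smallest p were Mthfd2, Psat1, Phgdh and Chac1. Mthfd2, of the mitochondrial folate cycle, stood at 26.2 and 24.2 FPKM against 12.1 and 12.5 (1.08 ± 0.074, edgeR adjusted p = 6.29e-06). Psat1 and Phgdh, of serine synthesis, rose by 0.92 ± 0.075 and 0.45 ± 0.061. Chac1, which breaks down glutathione, had 28 and 44 counts in AAV-IL-27 and 1 and 8 in AAV-ctrl (2.98 ± 0.60, adjusted p = 0.00494), too few to fix the size of its change. Shmt2, another enzyme of serine and folate metabolism on the list, was not called (0.07 ± 0.052, adjusted p = 0.308). The cell cycle genes were higher in the same libraries, and their part in this was not tested. Atf4, the transcription factor of the programme, stood at 146 and 137 FPKM against 149 and 147 (0.00 ± 0.049, edgeR adjusted p = 0.971). Also not called, and named after their values were seen, were Ddit3 (0.03 ± 0.086), Ddit4 (-0.57 ± 0.47) and Trib3 (-0.62 ± 0.45). Ddit4 had 177 and 393 counts in AAV-IL-27 and 440 and 415 in AAV-ctrl. The remaining genes called higher, also named after their values were seen, were Asns, Atf3 and Ppp1r15b. Their log2 fold changes were 1.51 ± 0.37, 0.56 ± 0.16 and 0.18 ± 0.058 (edgeR adjusted p = 0.0119, 0.0199 and 0.0352). Asns had 13 to 68 counts per library. Trib3 had 8 to 13 counts per library. Of the 16 log2 fold changes 13 lay above 0.

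Of 16 genes of mTORC1 and cap-dependent control, 6 were called lower (37.5%) and 1 higher (6.25%), beside 17.7% and 21.3% of all genes tested. Pdcd4, which traps the eIF4A helicase, stood at 79.5 and 92.1 FPKM in AAV-IL-27 and at 163 and 175 in AAV-ctrl, and fell by 0.93 ± 0.075 (edgeR adjusted p = 6.33e-05). Rptor, the scaffold of mTORC1, and Akt1s1 (PRAS40), its inhibitor, fell by 0.36 ± 0.065 and 0.43 ± 0.078. The other 3 called lower, named after their values were seen, were Tsc1, Tsc2 and Mknk2. Larp1, which holds TOP mRNAs in check, was the 1 called higher, at 61.1 and 55.9 FPKM against 48.4 and 48.9 (0.32 ± 0.054, adjusted p = 0.00158), but not under T cell marker scaling (0.182). Those called lower include the scaffold Rptor and the inhibitors Akt1s1, Tsc1 and Tsc2. Without ctrl-1 or ctrl-3, 4 were called lower.

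Of 19 initiation factors and their regulators with other names, 4 were called higher (21.1%) and 2 lower (10.5%), beside 21.3% and 17.7% of all genes tested. The 2 lower ones, Paip2 (77.6 and 82.8 FPKM against 99.7 and 104; -0.29 ± 0.054, edgeR adjusted p = 0.00243) and Paip2b (-0.23 ± 0.071, adjusted p = 0.0292), inhibit poly(A)-binding protein, whose gene Pabpc1 was among the 4 higher (0.15 ± 0.043, adjusted p = 0.022). Pabpc1 did not pass without IL-27-1 (0.0624), ctrl-1 (0.252) or ctrl-3 (0.102), with upper-quartile factors (0.0889) or library size alone (0.0908), or under T cell marker scaling (0.882). Paip2b did not pass without IL-27-3 (0.112), ctrl-1 (0.148) or ctrl-3 (0.131), nor by DESeq2 (0.19). With library size alone, and without IL-27-3, the test called 1 higher, and without ctrl-1 or ctrl-3 there was none. Dhps and Dohh, the enzymes that place hypusine on eIF5A, were not called while Eif5a rose (-0.09 ± 0.091 and -0.25 ± 0.12), though Dohh was called lower without IL-27-1 (0.0177) and under T cell marker scaling (0.0385).

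The list of elongation and release factors had 12 tested genes, among them Tpt1, which is neither. Of the 12, 1 was called higher (8.33%) and 1 lower (8.33%), beside 21.3% and 17.7% of all genes tested. Etf1, the release factor eRF1, stood at 47.2 and 48.4 FPKM against 37.3 and 36.8 (0.42 ± 0.047, edgeR adjusted p = 0.000151). Tpt1, a TOP mRNA, was lower (-0.21 ± 0.039, adjusted p = 0.00257) but did not pass without ctrl-1 (0.0645). Eef1a1, the elongation factor with the most transcripts, was at -0.06 ± 0.034 (adjusted p = 0.174), and was called lower with upper-quartile factors (0.0255) and library size alone (0.0257). Of 28 genes of ribosome biogenesis 6 were called higher (21.4%) and 3 lower (10.7%), beside 21.3% and 17.7% of all genes tested. Ncl, nucleolin, was at 0.24 ± 0.051 (edgeR adjusted p = 0.00517). Without ctrl-1 none of the 28 was called and Ncl had an adjusted p of 0.109 (0.441 under T cell marker scaling), and without ctrl-3 there was 1. Leaving out IL-27-1 or IL-27-3 gave fewer calls in each direction, with genes still called in both. The median log2 fold change of the 28 was 0.05 as reported and 0.06 without either AAV-IL-27 library. It was 0.03 without ctrl-1 and 0.09 without ctrl-3.

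The cytosolic ribosomal proteins, most of which are encoded by TOP mRNAs, ran against the initiation factors. Of the 83 tested, 32 were called lower (38.6%, beside 17.7% of all genes tested) and 2 higher (2.41%, beside 21.3%). Their median log2 fold change was -0.09. Without ctrl-1 or ctrl-3 the test called 11 lower and 1 higher, and with library size alone it called 46 lower. The difference between the lists was not tested. Rps24 stood at 3128 and 3221 FPKM against 4324 and 4318, and fell by 0.39 ± 0.041 (edgeR adjusted p = 9.4e-05). The plot of shares by group sets these lists side by side.

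**Figure D5:**
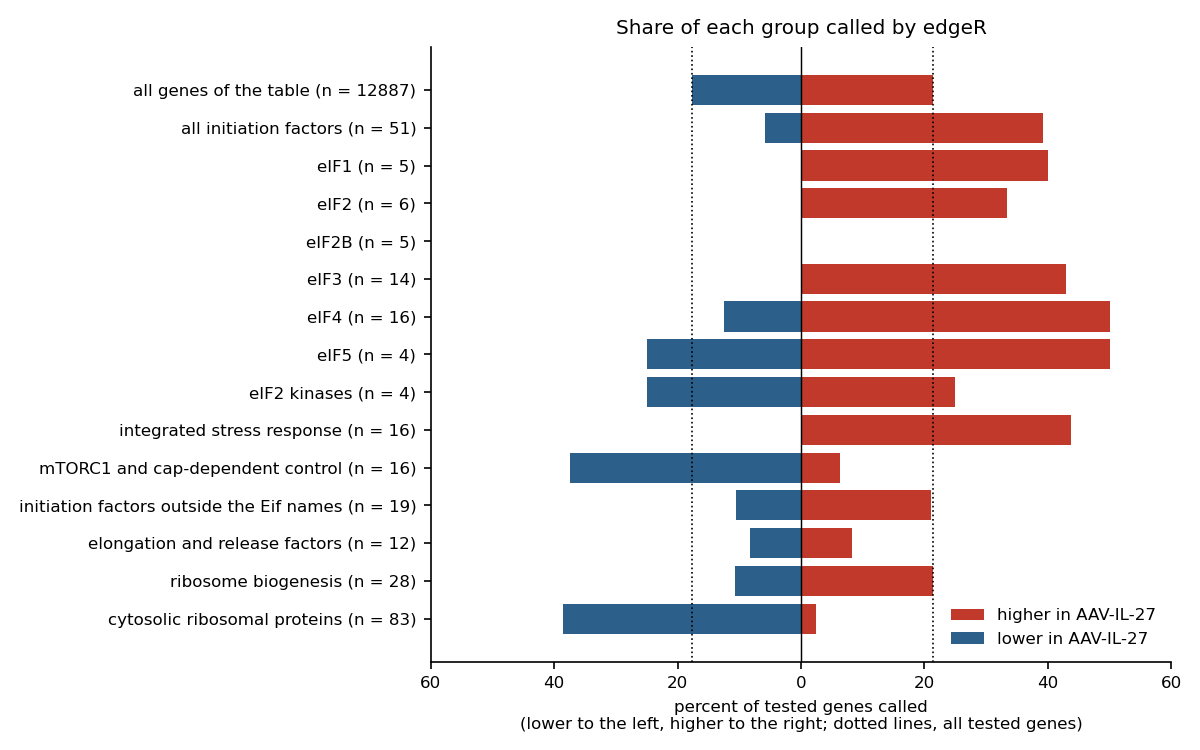
Percent of tested genes called by edgeR in each initiation factor complex except eIF6, and in each list of the translation machinery. Genes higher in AAV-IL-27 run to the right and lower ones to the left, with dotted lines at 21.3% and 17.7% for all genes tested. Of the complexes, eIF4 and eIF5 reach 50% higher, eIF3 42.9%, eIF1 40%, eIF2 33.3% and eIF2B 0%. The cytosolic ribosomal proteins reach 38.6% lower.

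For Eif4e2 and Eif4ebp2, the counts and the FPKM of the authors' table did not move alike. Dividing the count by FPKM and library total gives the transcript length implied in each library. Among the 48 members with at least 200 counts in every library, this length differed by more than 0.1 (log2) in these 2 (4.17%), beside 1.93% of 8244 tested genes. The length implied for Eif4e2 was 1983 and 2037 bases in AAV-IL-27 and 2307 and 2198 in AAV-ctrl. For Eif4ebp2 it was 4645 and 4805 bases against 5297 and 5076. Both were shorter in each AAV-IL-27 library than in each control. For Eif4e2 the ratio of FPKM was 0.34 (log2), above the 0.23 fitted on counts. For Eif4ebp2 it was -0.02, against -0.11 on counts. Both comparisons include the scaling offset of 0.05 between fit and FPKM. The implied lengths differed by -0.16 (Eif4e2) and -0.13 (Eif4ebp2) on the log2 scale.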

How the data were processed

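Expected counts that need not be whole, and values taken as FPKM (a unit inferred from the values), were deposited by the authors for each gene and library. Per the submitters' processing notes, the tools were RSEM 1.2.12, HISAT2 2.0.4, DESeq2 1.4.5 and Bowtie2 2.2.5, on GRCm38.p6; their roles and the strand setting are not stated there. Between 64.9% and 65.1% of the expected counts of a library were whole. For 21 of the 51 members the counts were not whole in every library. Values of near copies (Eif2s3x and Eif2s3y, Eif3j1 and Eif3j2) are uncertain where reads could be divided. The counts of Eif4a1 and Eif1ax were whole in every library, and those of their paralogs Eif4a2 and Eif1a were not. RefSeq places 10 members over another gene of the table. Among them are Eif4a2 (over Rfc4) and Eif4enif1 (over Sfi1), whose calls held under all 11 alternatives.

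Counts were rounded, filtered with filterByExpr (12887 of 17039 genes kept), scaled by TMM and tested with edgeR 4.0.16 in R 4.3.3 (quasi-likelihood, robust, two-sided, no block, Benjamini-Hochberg over all tested genes). SE is the size of the log2 fold change over the square root of F. FPKM serve for levels only. DESeq2 1.42.0, other scalings, no filter, unrounded counts, a replicate block and leaving out each library were alternatives; in the last, the lone library of a group is assumed to vary like the other group. The scripts were tested on simulated data. Members and lists were chosen with earlier results of these data known. Any member may be named; of each other list, up to 4 genes with the smallest p are, plus Atf4, Larp1, Pdcd4, Dhps, Dohh, Myc, Pabpc1 and Eef1a1 where a result turns on them. Tsc1, Tsc2, Mknk2, Shmt2, Ddit3, Ddit4, Trib3, Asns, Atf3 and Ppp1r15b fall outside this rule. Libraries of 1 group differed by more than counting noise (chi-square per degree of freedom 6.47 and 2.49). The series' design text gives 4 mice, 2 in each group.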

Additional observations from a re-analysis of the deposited data

How the results depend on the processing

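The number of genes changed was 5023, and 3243 by DESeq2. Leaving out 1 library gave 2635 to 4886 changed genes, 7 to 21 initiation factors higher and 1 to 4 lower; the low ends came without an AAV-ctrl library. Under T cell marker scaling 4 were higher, and upper-quartile factors or library size alone gave 5 lower; the cause was not tested. The T cell list itself summed to 6525 CPM in IL-27-1 and 5767 in IL-27-3. With a replicate block 21 were higher and 3 lower, 20 and 3 of them the same genes; 4971 genes were called in all. Whether the numbers 1 and 3 pair the libraries is not stated; deviations from the group means correlated at -0.01, which shows no pairing and does not exclude one. No filter and unrounded counts gave 20 and 3.

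No called gene changed sign. Uncalled genes near 0 did, with these log2 fold changes. Upper-quartile factors: Eif1 -0.0384, Eif1b -0.0202, Eif2b5 -0.0461, Eif3e -0.0265, Eif3f -0.0156, Eif3h -0.00435. Library size alone: Eif1 -0.0377, Eif1b -0.0196, Eif2b5 -0.0455, Eif3e -0.0259, Eif3f -0.0149, Eif3h -0.0038. T cell marker scaling: Eif1 -0.114, Eif1b -0.0937, Eif2a -0.047, Eif2d -0.0106, Eif2s3x -0.0282, Eif2b2 -0.0124, Eif2b3 -0.0127, Eif2b4 -0.0676, Eif2b5 -0.12, Eif3e -0.0998, Eif3f -0.0896, Eif3h -0.0789, Eif4b -0.0623, Eif4g2 -0.0589, Eif4g3 -0.0228, Eif2ak1 -0.045. Leaving out 1 library in turn gave ranges that cross 0: Eif1 -0.0326 to 0.0569, Eif1ad -0.0936 to 0.055, Eif2b4 -0.0111 to 0.118, Eif2b5 -0.0196 to 0.0272, Eif3g -0.0299 to 0.0102, Eif4e1b -0.498 to 0.0886, Atf4 -0.0403 to 0.0336 and Dhps -0.188 to 0.00935. Eif3j2 and Eif4e1b, with the fewest counts, have the widest intervals of the 51.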
